A study of Homo sapiens with 8 samples.

Results

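The genes in question encode proteins of the lysosomal membrane and subunits of the V-ATPase, the proton pump that acidifies the lysosome, and their mRNA was followed in cervical cancer cells after knockdown of IGF2R. The 31 genes were chosen by name, with earlier results of these data known. Of these, 29 were measured, out of 8961 genes measured in all. A gene was counted as measured when a probe set annotated with that gene alone reached a signal of 500 on at least 1 array, and the one with the highest mean signal stood for the gene. LAMP3 was not measured, because its probe set lay between 1.2 and 114 on all 8 arrays. ATP6V1F has no value, because its probe set carries more than 1 gene symbol. By role, the 29 genes comprise 7 membrane glycoproteins, 7 genes of sterol, amino acid, sugar and ion transport, 6 subunits of the membrane sector of the pump (V0), 7 subunits of its cytosolic sector (V1) and 2 accessory proteins of the pump.

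BOKU and SKG-I are cervical cancer cell lines, and each was transfected by lipofection with siRNA directed at IGF2R (siIGF2R) or with a control (siCtrl) and cultured for 72 h, all in the same serum-containing medium. Total RNA was hybridized to GeneChip expression arrays, 2 arrays for each of the 4 groups BOKU siCtrl, BOKU siIGF2R, SKG-I siCtrl and SKG-I siIGF2R. The arrays of a group carried the same RNA, so the 8 arrays stand for 4 RNA samples, the cell lines are the only replicates of the knockdown, and the sequence of the siRNA used on the arrays is not given in the sources used here. Each value is an intensity called the MAS5 signal, which is linear and was brought by the authors to a common level per array. The IGF2R signal was 7288 and 6711 on the BOKU siCtrl arrays against 641 and 645 with siIGF2R, and 4120 and 3838 on the SKG-I siCtrl arrays against 257 and 295. IGF2R mRNA thus fell to 9.19% of siCtrl in BOKU and to 6.92% in SKG-I (log2 change -3.65 ± 0.21 (SE), limma, adjusted p = 0.0221). Of the epithelial markers, KRT8, KRT18 and KRT19 were at 1939 or more on every array, whereas EPCAM was at 17.9 to 50.8 and CDH1 at 1 to 3.15 in BOKU against 1247 to 1536 and 143 to 652 in SKG-I. The squamous markers KRT5 and KRT14 were at 45.9 or less on every array, and none of the 3 endothelial and 5 leukocyte markers reached 500. Of the 4 fibroblast markers, COL1A1 reached 500 in both lines, COL3A1 did so in SKG-I, and DCN and LUM were at 149 or less. The summed signal of these 4 was 7734 to 7820 with siCtrl and 5860 to 6005 with siIGF2R in SKG-I, and 1325 to 1637 over the BOKU arrays. That of the 5 epithelial markers was 41568 to 43759 with siCtrl and 31388 to 36675 with siIGF2R in BOKU, and 37313 to 37722 against 28275 to 28880 in SKG-I. The part of either sum in the results was not tested. In bulk RNA of this kind, fewer cells with a transcript and less of it per cell cannot be told apart.

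IGF2R is the cation-independent mannose 6-phosphate receptor, which takes newly made lysosomal hydrolases from the Golgi to endosomes. Proteins of the lysosomal membrane mostly reach the organelle by other sorting signals in their cytosolic tails, and they form its limiting glycoprotein coat, export the products of digestion and conduct ions. The V-ATPase is built from a rotating membrane sector that passes protons and a cytosolic sector that hydrolyzes ATP, and the acidity it makes is needed both for the hydrolases and for the release of cargo from IGF2R. Many of these genes carry in their promoters the motif GTCACGTG, to which the transcription factors TFEB and TFE3 are known to bind.

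Most of the 29 genes had lower mean signals with siIGF2R than with siCtrl, by less than 2-fold, and none passed the adjusted test over both lines by the probe set that stood for it. In limma, 0 of 29 genes were called lower (2.37% of all genes were) and 0 were called higher (2.63% of all genes). At an unadjusted p under 0.05, 10 of 29 were lower (34.5%, against 14% of all genes) and 0 were higher (against 14.4% of all genes). The mean change lay below 0 in both lines for 19 of 29 genes (65.5%, against 35.7% of all genes), and the log2 change over both lines lay below 0 for 24 (82.8%, against 49.5% of all genes). For 15 of the 29 (51.7%, against 25.2% of all genes), both siIGF2R arrays lay below both siCtrl arrays in each line. For 3 genes, ATP6V0A2, ATP6V0B and ATP6V1C1, the siIGF2R arrays lay above the siCtrl arrays in each line (10.3%, against 26.4% of all genes). The median log2 change of the 29 genes was -0.33 in BOKU and -0.23 in SKG-I, beside medians of 0.03 and -0.03 over all genes.

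These genes are highly expressed, and signal strength moved with the change over the arrays as a whole. When all probe sets were divided into 10 classes by mean signal, 23 of 29 genes fell in the 3 highest classes, and the median change of the highest class was -0.11 in BOKU and -0.10 in SKG-I. With the median change of each class subtracted, the median was -0.28 in BOKU and -0.13 in SKG-I, and over the 21 genes with a probe set that matches 1 transcript it was -0.35 and 0.02. When the 8 arrays were entered as separate samples, which takes duplicate arrays of 1 RNA for replicates, limma called 15 of the 29 genes lower and 3 higher. That fit called 4534 of all 8961 genes, lower or higher, against 448 in the main fit.

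**Figure D1:**
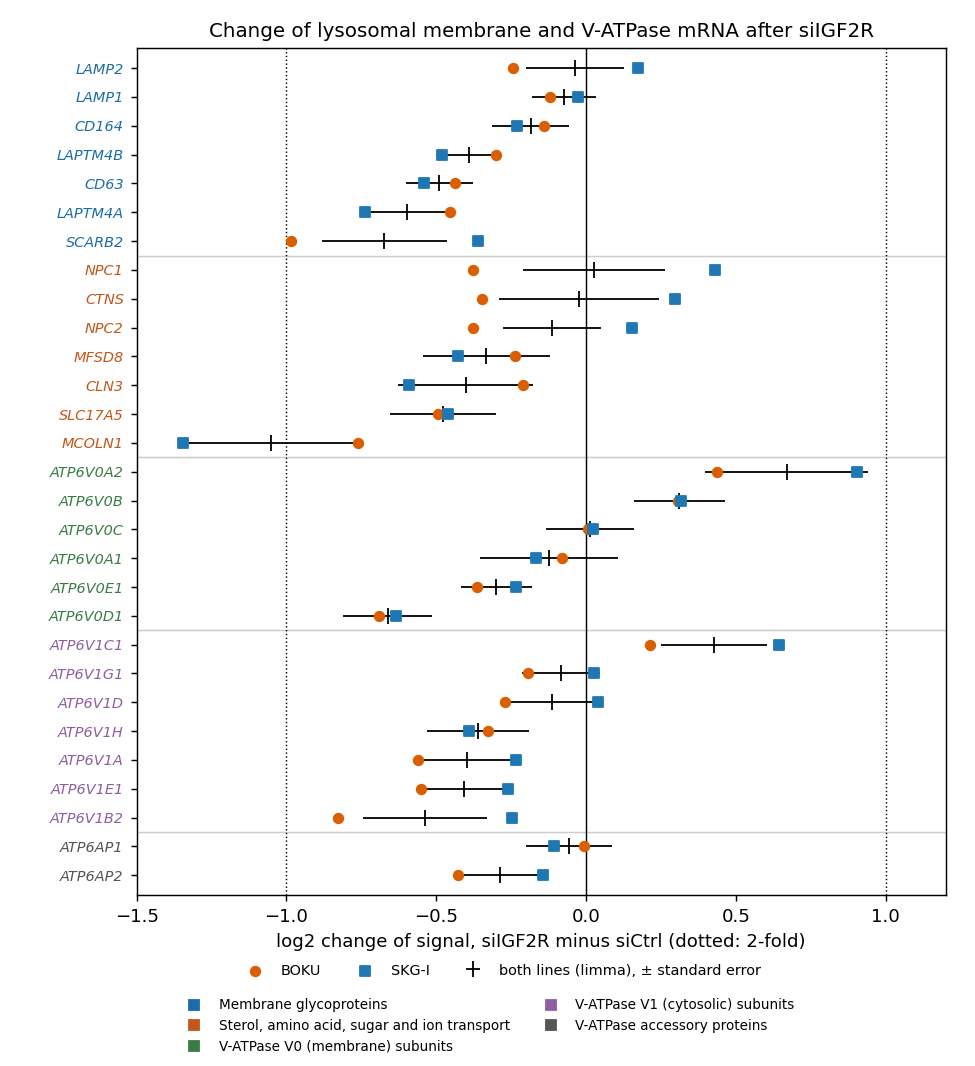
Log2 change of the MAS5 signal, siIGF2R minus siCtrl, for the 29 measured genes, grouped by role (colour of the gene name); orange circles are BOKU, blue squares SKG-I (each the difference of the means of 2 arrays of 1 RNA sample), and black ticks with bars are the limma value over both lines ± SE. Most points lie to the left of 0, MCOLN1 in SKG-I passes the dotted 2-fold line at -1.34, and ATP6V0A2, ATP6V0B and ATP6V1C1 lie to the right of 0 in both lines.

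Promoter sequence was set beside these values because many genes of this kind carry GTCACGTG. RefSeq promoter windows of GRCh38.p14, from 250 bases before to 50 after a start site, were at hand for 23 of the 31 genes and were searched on both strands, where the motif reads CACGTGAC on the other strand. The motif was present in 7 of 23 genes (30.4%), beside 2.4% of 35116 promoters of all genes and 5.83% of the 7510 measured genes with a promoter. Its core CACGTG, which the longer motif contains, was present in 8 of 23 (34.8%), the 7 genes and CD63, beside 7.26% of all promoters and 13.3% of measured genes. The 7 genes are shown by the 28 bases around the match nearest the 5′ end of the window, on the gene's own strand, with the 8 bases of the motif in capitals, because they include the gene with the lowest log2 change and one of the 3 genes above siCtrl in both lines.
MCOLN1, chr19:7522571-7522598, plus strand: accagaggcgGTCACGTGaggggctctg
ATP6V0D1, chr16:67481201-67481228, minus strand: cccccttatgGTCACGTGaggcgcttgc
CLN3, chr16:28492060-28492087, minus strand: cgcgggtgctGTCACGTGatccgacaaa
CD164, chr6:109382484-109382511, minus strand: aggggcctctCACGTGACccctgcgcgc
ATP6V1G1, chr9:114587699-114587726, plus strand: acgctgtgcgGTCACGTGacaacggggg
LAMP1, chr13:113297035-113297062, plus strand: accaggccggGTCACGTGggtccagggt
ATP6V0B, chr1:43974891-43974918, plus strand: ccggcgtgggGTCACGTGgtaccggcgc

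The first base of the motif lay 61 to 34 bases before the start site in MCOLN1, ATP6V0D1, CD164, ATP6V1G1 and ATP6V0B, 3 bases before it in CLN3 and 194 bases before it in LAMP1. The log2 changes over both lines of these genes, in the order printed, were -1.05 for MCOLN1, -0.66 for ATP6V0D1, -0.40 for CLN3, -0.18 for CD164, -0.08 for ATP6V1G1, -0.07 for LAMP1 and 0.31 for ATP6V0B. Genes with the motif thus ranged from the lowest log2 change of the 29 genes to one above 0, below those of ATP6V0A2 and ATP6V1C1. A match of letters is a description of the window and says nothing of binding in these cells.

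LAMP2, with LAMP1 one of the most abundant glycoproteins of the lysosomal membrane, gave opposing answers from its probe sets. It was measured by 4 of them, and its transcripts are spliced to alternative last exons, which give the isoforms LAMP-2A, LAMP-2B and LAMP-2C with different membrane anchors and tails. Probe set 200821_at, derived from the RefSeq record of the LAMP-2B transcript, gave 3627 and 3471 on the BOKU siCtrl arrays and 9287 and 9978 with siIGF2R. In SKG-I it gave 1167 and 989 with siCtrl and 4073 and 4587 with siIGF2R. Every siIGF2R array lay above every siCtrl array of its line. The signal rose to 271% of siCtrl in BOKU and to 402% in SKG-I (log2 change 1.72 ± 0.20 (SE), limma, adjusted p = 0.0231).

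Probe set 226671_at gave 1567 and 1833 with siCtrl and 4028 and 4160 with siIGF2R in BOKU, and 203 and 212 with siCtrl and 681 and 714 with siIGF2R in SKG-I. It rose as well, to 242% and 336% of siCtrl (log2 change 1.51 ± 0.22 (SE), limma, adjusted p = 0.0329). Of the 59 probe sets of the measured genes, these 2 of LAMP2 were the ones called higher (2.2% of all probe sets were) and 0 were called lower (2.09% of all probe sets).

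The remaining probe sets of LAMP2 did not pass the test. The one with the highest mean signal, 203041_s_at, which stood for the gene, read 15421 and 16251 with siCtrl against 11656 and 15305 with siIGF2R in BOKU, and 3584 and 3715 against 3997 and 4234 in SKG-I (log2 change -0.04, adjusted p = 0.908 in limma). Its siIGF2R arrays lay below siCtrl in BOKU and above it in SKG-I. Probe set 203042_at, derived from the RefSeq record of LAMP-2A, read 9663 and 9980 against 9641 and 9958 in BOKU and 2291 and 2128 against 2677 and 2614 in SKG-I (log2 change 0.13, adjusted p = 0.646 in limma). The 4 log2 changes of LAMP2 span 1.76, while those of the other genes with several probe sets span at most 0.69, with a median of 0.15. Where on the transcripts the probes lie was not analysed here, so which isoform each probe set reads was not tested. The calls of 200821_at and 226671_at were kept with each array left out in turn (adjusted p at most 0.0376) and were lost when limma was run with no trend of the variance (adjusted p = 0.103 for both). With no trend, 0 of all 8961 genes were called after siIGF2R, so this loss is not particular to LAMP2.

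**Figure D2:**
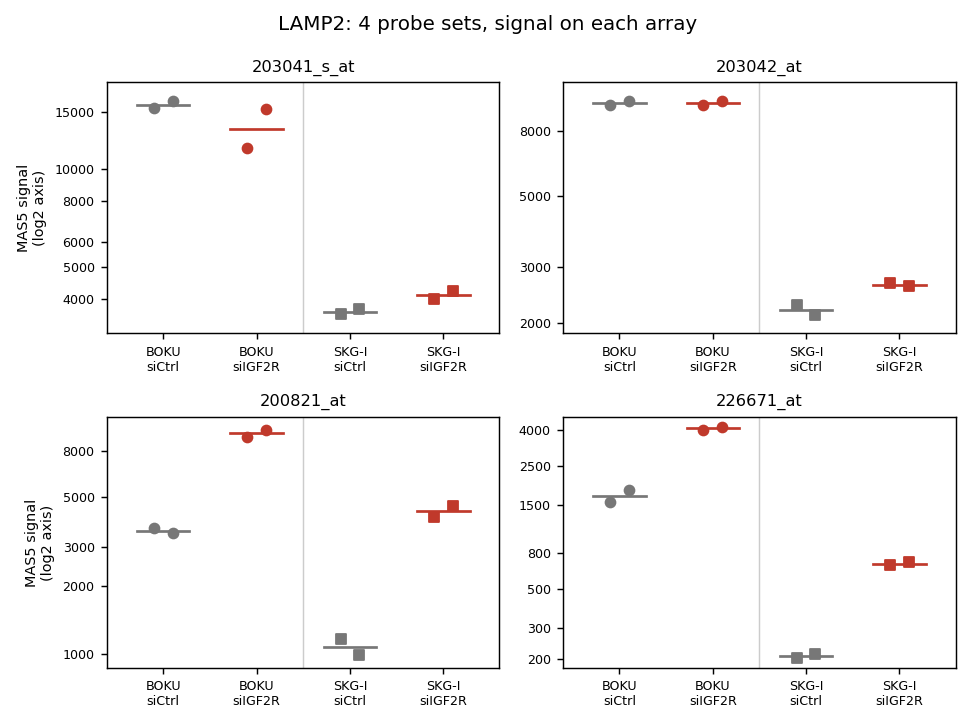
MAS5 signal (log2 axis, scaled separately in each panel) of the 4 LAMP2 probe sets on the 8 arrays; each point is 1 array, grey for siCtrl and red for siIGF2R, circles for BOKU and squares for SKG-I, and the bars are geometric means of the 2 arrays of an RNA sample. In 200821_at and 226671_at the red points lie well above the grey ones in both lines (242% to 402% of them), whereas in 203041_s_at and 203042_at they do not.

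Among the other membrane glycoproteins, 4 of 6 were lower before adjustment (p under 0.05, against 14% of all genes), and the siIGF2R arrays of these 4 lay below siCtrl in both lines (against 25.2% of all genes). CD63, a tetraspanin of late endosomes and lysosomes, read 25634 and 28657 with siCtrl and 18345 and 21820 with siIGF2R in BOKU, and 15964 and 16245 against 11120 and 11024 in SKG-I. The groups of arrays did not overlap in either line, and the change was -0.49 ± 0.11 (SE; adjusted p = 0.067 in limma). LAPTM4A, a tetra-spanning protein of late endosomes and lysosomes, read 16431 and 15825 against 11727 and 11831 in BOKU, and 18877 and 18393 against 11550 and 10791 in SKG-I. Its 4 siIGF2R arrays lay below all 4 siCtrl arrays (log2 change -0.60 ± 0.13 (SE), adjusted p = 0.0644 in limma).

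LAPTM4B, its paralog, read 26954 and 28210 against 20937 and 23888 in BOKU and 18529 and 19518 against 13859 and 13425 in SKG-I. All 4 of its probe sets were lower with siIGF2R over both lines, by log2 changes between -0.59 and -0.39 (adjusted p = 0.0982 in limma for the one that stood for the gene). SCARB2, the receptor that brings glucocerebrosidase to lysosomes without mannose 6-phosphate, read 5878 and 5708 against 2872 and 2981 in BOKU and 3586 and 3805 against 2759 and 2999 in SKG-I. The BOKU siIGF2R arrays came to 50.5% of siCtrl, just short of 2-fold, and those of SKG-I to 77.9%. Its 3 probe sets were all below siCtrl, with log2 changes between -0.87 and -0.67 (adjusted p = 0.116 in limma for the one that stood for the gene).

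LAMP1 and CD164, a sialomucin of endosomes and lysosomes, showed the smallest changes of the glycoproteins beside LAMP2. The LAMP1 signal was 92.1% of siCtrl in BOKU and 98.2% in SKG-I, and that of CD164 was 90.8% and 85.3%. The siIGF2R and siCtrl arrays overlapped in both lines for LAMP1 and in BOKU for CD164. The faintest of the 4 LAMP1 probe sets, 213728_at, had a log2 change of 0.54 over both lines, against changes from -0.15 to -0.03 in the others.

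Among the 7 transport genes, MCOLN1 had the largest log2 change over both lines of all 29 genes by the probe sets that stood for them. It encodes TRPML1, a cation channel that releases calcium from the lysosome, and it carries GTCACGTG in its promoter window. Its signal was 651 and 543 with siCtrl and 338 and 365 with siIGF2R in BOKU, and 706 and 570 against 278 and 225 in SKG-I. All 4 siIGF2R arrays lay below all 4 siCtrl arrays, at 59.0% of siCtrl in BOKU and 39.4% in SKG-I. By these probe sets, MCOLN1 was the only 1 of 29 genes past 2-fold in SKG-I (14.7% of all genes were), and 0 were past 2-fold in BOKU (13.1% of all genes). The LAMP2 probe sets 200821_at and 226671_at, which did not stand for the gene, were past 2-fold in both lines. Over both lines the log2 change of MCOLN1 was -1.05 ± 0.28 (SE; unadjusted p = 0.0105 and adjusted p = 0.0896 in limma). Its signal passed 500 on the siCtrl arrays and on none of the siIGF2R arrays, so that it was measured through the group where it was high.

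SLC17A5, the exporter of sialic acid known as sialin, read 2818 and 2659 against 2026 and 1860 in BOKU and 3325 and 3264 against 2415 and 2377 in SKG-I. The siIGF2R arrays lay below siCtrl in both lines, at 70.9% and 72.7% of it (log2 change -0.48 ± 0.18 (SE), adjusted p = 0.161 in limma). CLN3 and MFSD8, the genes of Batten disease and of a related neuronal ceroid lipofuscinosis, also had siIGF2R arrays below siCtrl in both lines, at 66.3% to 86.4% of siCtrl, and neither reached an unadjusted p under 0.05. The other probe set of CLN3 was at 79.7% of siCtrl in BOKU and 64.6% in SKG-I. That of MFSD8 was at 104% and 89.8%, with overlapping arrays in BOKU.

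NPC1, NPC2 and CTNS went opposite ways in the lines, and so did LAMP2 by the probe set that stood for it. For these 4 of 29 genes (13.8%) the siIGF2R arrays lay below siCtrl in BOKU and above it in SKG-I, as they did for 5.57% of all genes, and 13.3% of all genes went opposite ways in either order. NPC1, the membrane exporter of lysosomal cholesterol, read 6238 and 5886 against 4519 and 4813 in BOKU and 1721 and 1922 against 2477 and 2430 in SKG-I. NPC2, the soluble carrier that hands cholesterol to NPC1 and is itself a cargo of mannose 6-phosphate receptors, read 20354 and 25105 against 15218 and 19933 in BOKU and 6761 and 7271 against 7808 and 7770 in SKG-I. Both were thus at 77.0% of siCtrl in BOKU, and NPC1 was at 135% and NPC2 at 111% of it in SKG-I. CTNS, the exporter of cystine, read 839 and 994 against 736 and 701 in BOKU and 393 and 292 against 397 and 436 in SKG-I. The separation of CTNS in SKG-I was by a few units of signal between the nearest arrays, and its other probe set had a log2 change of -0.02 there. Over both lines the log2 changes of NPC1, NPC2 and CTNS were between -0.11 and 0.03 (adjusted p of 0.689 or more in limma).

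**Figure D3:**
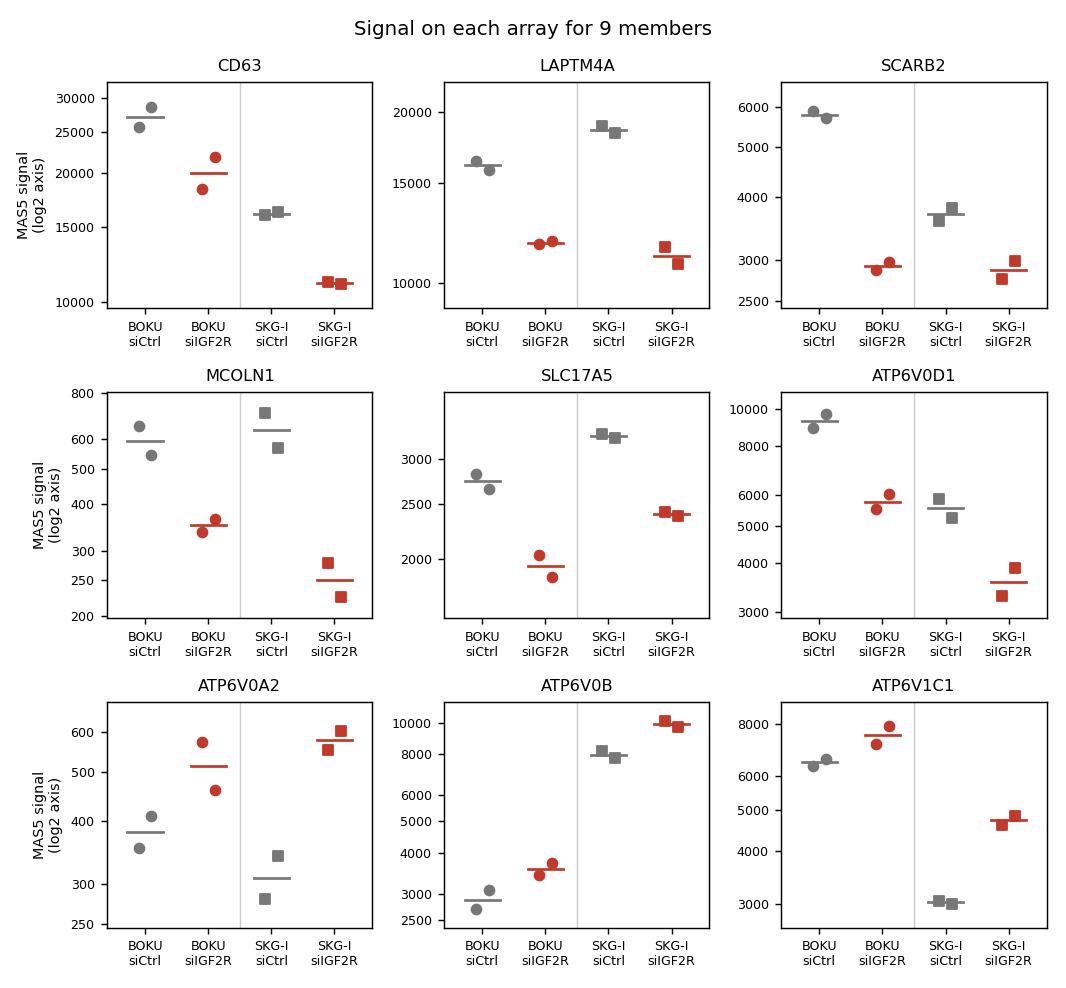
MAS5 signal (log2 axis, scaled separately in each panel) of 9 genes on the 8 arrays; each point is 1 array, grey for siCtrl and red for siIGF2R, circles for BOKU and squares for SKG-I, with bars at the geometric mean of the 2 arrays. In CD63, LAPTM4A, SCARB2, MCOLN1, SLC17A5 and ATP6V0D1 the red points lie below the grey ones of the same line, and in ATP6V0A2, ATP6V0B and ATP6V1C1 above them.

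The V-ATPase subunits had mean signals on both sides of siCtrl. Of the 6 subunits of the membrane sector, 3 had log2 changes below 0 over both lines (against 49.5% of all genes) and 3 above 0. The median change of the 6 was -0.04 in BOKU and -0.07 in SKG-I. ATP6V0D1, subunit d, which joins the rotor to the cytosolic sector and which also has the motif, read 8948 and 9682 with siCtrl and 5527 and 6017 with siIGF2R in BOKU, and 5858 and 5239 against 3293 and 3874 in SKG-I. It was at 62.0% of siCtrl in BOKU and 64.5% in SKG-I, with no overlap of the arrays in either line (log2 change -0.66 ± 0.15 (SE), adjusted p = 0.0663 in limma). Without replicate 1 of BOKU siCtrl or replicate 2 of BOKU siIGF2R, ATP6V0D1 passed the adjusted threshold (log2 change -0.69 in either fit). Without the former, CD63 (-0.53) and LAPTM4A (-0.58) passed it too. More of all genes were called in these fits than in the main fit, so these calls are not particular to the genes named.

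ATP6V0E1, subunit e, read 19921 and 19132 against 14694 and 15644 in BOKU and 12618 and 13438 against 10929 and 11225 in SKG-I. The change was -0.30 ± 0.12 (SE; adjusted p = 0.18 in limma), and the 3 brighter of its 5 probe sets were lower by log2 changes between -0.43 and -0.30, whereas the 2 fainter ones gave 0.07 and 0.12. ATP6V0C, the proteolipid c that forms most of the rotor ring, differed little between siRNAs, at 100.3% of siCtrl in BOKU and 102% in SKG-I. ATP6V0A1, the subunit a found in many tissues and enriched in neurons, was at 94.6% and 89.1%.

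ATP6V0A2 and ATP6V0B stood on the other side. ATP6V0A2, a subunit a of the Golgi and endosomes, read 354 and 410 with siCtrl and 574 and 462 with siIGF2R in BOKU, and 281 and 341 against 554 and 604 in SKG-I. It was at 135% of siCtrl in BOKU and 187% in SKG-I, the highest percentage of the 29 genes in each line by the probe sets that stood for them. ATP6V0A2 reached 500 on siIGF2R arrays alone, so that it was measured through the group where it was high. Its second probe set was at 146% and 161% of siCtrl, and it too reached 500 on siIGF2R arrays alone, those of SKG-I. The first gave a log2 change of 0.67 ± 0.27 (SE; adjusted p = 0.186 in limma). ATP6V0B, the c'' proteolipid of the rotor ring, read 2693 and 3082 against 3416 and 3720 in BOKU and 8169 and 7811 against 10152 and 9735 in SKG-I. It was at 124% of siCtrl in both lines (log2 change 0.31 ± 0.15 (SE), adjusted p = 0.245 in limma).

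Of the 7 subunits of the cytosolic sector, 6 had log2 changes below 0 over both lines (against 49.5% of all genes) and 1 above 0. At an unadjusted p under 0.05, 2 of the 7 were lower (against 14% of all genes). ATP6V1B2, the nucleotide-binding subunit B, read 4556 and 4706 with siCtrl and 2607 and 2616 with siIGF2R in BOKU, and 3381 and 3516 against 2908 and 2904 in SKG-I. Its signal was at 56.4% of siCtrl in BOKU and 84.3% in SKG-I (log2 change -0.54 ± 0.21 (SE), adjusted p = 0.171 in limma). ATP6V1E1, subunit E of the peripheral stalks, read 8072 and 8907 against 5502 and 6077 in BOKU and 5438 and 5936 against 4619 and 4860 in SKG-I. It was at 68.2% and 83.4% of siCtrl, again with the lower percentage in BOKU (log2 change -0.41 ± 0.16 (SE), adjusted p = 0.174 in limma). ATP6V1A, the catalytic subunit A, was at 67.8% and 85.0%, and ATP6V1H, the regulatory subunit H, at 79.7% and 76.2%, with arrays apart in both lines.

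ATP6V1C1, subunit C, which takes part in the reversible joining of the sectors, was the exception. Its signal was 6363 and 6605 with siCtrl and 7142 and 7892 with siIGF2R in BOKU, and 3040 and 2997 against 4612 and 4827 in SKG-I. All 4 of its probe sets had log2 changes above 0 over both lines, from 0.17 to 0.49 (adjusted p = 0.191 in limma for the one that stood for the gene). ATP6V1D of the central stalk was at 83.0% of siCtrl in BOKU and 103% in SKG-I, and ATP6V1G1 of the peripheral stalks at 87.4% and 102%. Of the accessory proteins, ATP6AP2, also known as the prorenin receptor, was at 74.3% and 90.4% with arrays apart in both lines, and ATP6AP1 was at 99.5% and 92.8%.

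The lines themselves differed in these genes. Over both siRNAs, 11 of 29 genes were called higher in BOKU by limma (37.9%, against 22% of all genes) and 1 was called higher in SKG-I (3.45%, against 24.2% of all genes). Each line gave 1 RNA sample per siRNA to this comparison. LAMP2 had the largest difference, 3.75-fold higher in BOKU (log2 difference, SKG-I minus BOKU, -1.91 ± 0.16 (SE), adjusted p = 0.00116), and all 4 of its probe sets were called higher there. Next came both genes of cholesterol export, NPC2 at 2.69-fold (log2 difference -1.43 ± 0.16, adjusted p = 0.00241) and NPC1 at 2.52-fold (log2 difference -1.33 ± 0.24, adjusted p = 0.00834). For these 3 genes, all 4 BOKU arrays lay above all 4 SKG-I arrays, as the values given with the knockdown show.

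Also called higher in BOKU were CTNS at 2.16-fold, ATP6V1C1 at 1.85-fold, CD63 at 1.74-fold and ATP6V0D1 at 1.65-fold. The rest were ATP6V1D at 1.59-fold, LAPTM4B at 1.54-fold, ATP6AP1 at 1.46-fold and ATP6V0E1 at 1.43-fold. Of the 4 probe sets of ATP6V1C1, 2 were called higher in BOKU, as were 3 of the 5 of ATP6V0E1. CTNS reached the signal required of a measured gene on BOKU arrays alone, so it was measured through the line where it was high. ATP6V0B was the gene called higher in SKG-I, at 2.78-fold (log2 difference 1.48 ± 0.15 (SE), adjusted p = 0.00177), and the difference was 1.47 with siCtrl and 1.48 with siIGF2R. The second probe set of ATP6V0A2 was also called higher in SKG-I (log2 difference 0.95, adjusted p = 0.0433 in limma). The one that stood for ATP6V0A2 was not (-0.07). LAMP1 was 0.29 higher in SKG-I on the log2 scale (adjusted p = 0.0716 in limma), while the 3 other of its 4 probe sets were called higher in SKG-I. The faintest of these reached the signal required of a measured gene on SKG-I arrays alone. With no trend of the variance in limma, 6 genes were called higher in BOKU. Without replicate 2 of BOKU siIGF2R, ATP6AP1 was no longer called (adjusted p = 0.0555). With no filter on signal, 9 genes were called higher in BOKU, as ATP6AP1 and ATP6V0E1 were not (adjusted p = 0.0555 and 0.0621), and ATP6V0E1 was not called over probe sets of 1 transcript (adjusted p = 0.0529).

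**Figure D4:**
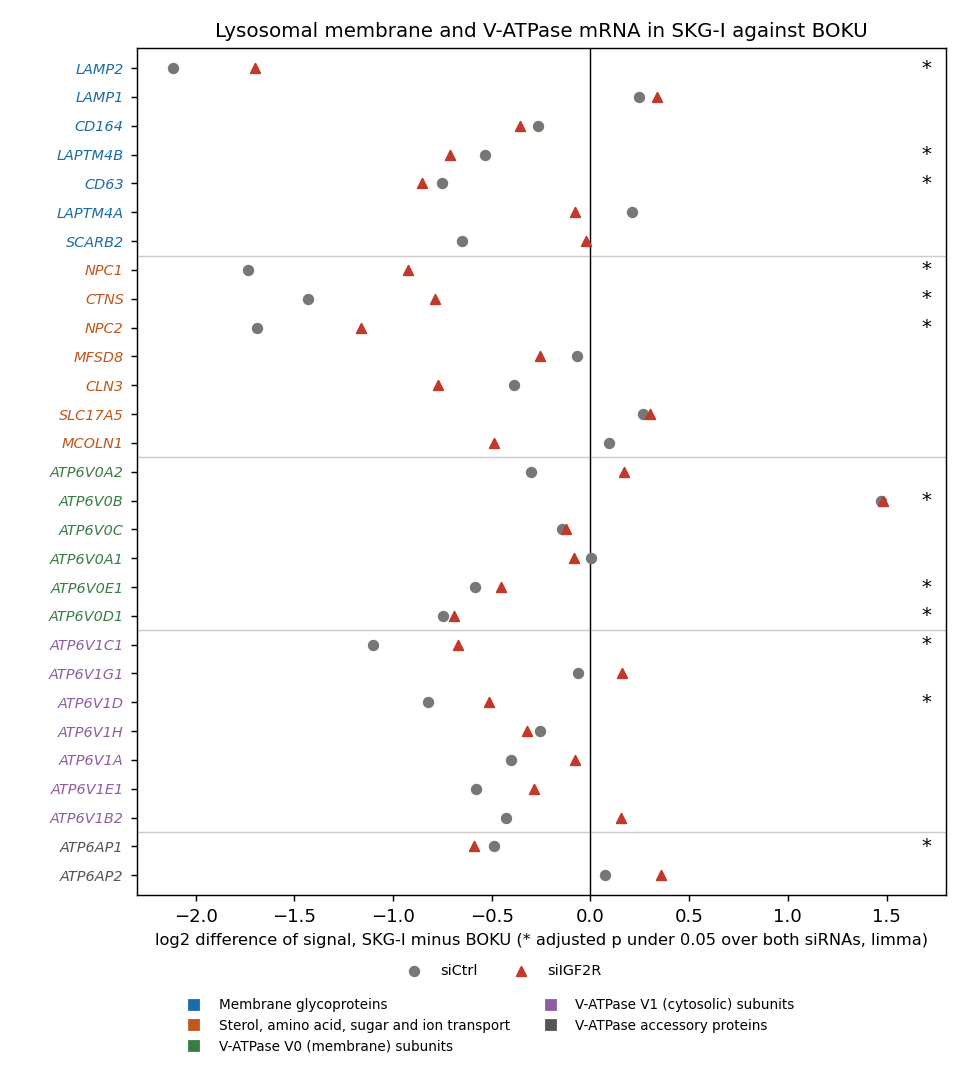
Log2 difference of the MAS5 signal, SKG-I minus BOKU, for the 29 genes, grouped by role (colour of the gene name); grey circles are siCtrl and red triangles siIGF2R, each the difference of the means of 2 arrays, and an asterisk marks an adjusted p under 0.05 over both siRNAs in limma. With siCtrl, LAMP2, NPC1, NPC2 and CTNS lie farthest to the left. With siIGF2R, CD63 at -0.85 lies to the left of CTNS at -0.79. ATP6V0B lies alone at the right at 1.47 and 1.48.

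Other genes of the same compartments were taken from a list of V-ATPase and lysosomal membrane genes outside the 31. That list was written with earlier results of these data known, so counts over it describe the list and test nothing. Of 8 further V-ATPase subunits, assembly factors and regulators measured, 0 were called lower (against 2.37% of all genes) or higher (against 2.63%) after siIGF2R. At an unadjusted p under 0.05, 1 of the 8 was lower (against 14% of all genes). Of 25 further lysosomal membrane genes measured, 4 were called lower (against 2.37% of all genes) and 3 were called higher (against 2.63%). Those that fell were SLC15A4, a peptide and histidine transporter (log2 change -1.36), SLC38A9, the arginine sensor of mTORC1 (-1.34), MFSD1, a dipeptide exporter (-1.09), and LMBRD1, needed for export of cobalamin (-1.09). Those that rose were DRAM1, a p53-induced regulator of autophagy (1.91), MCOLN3, a paralog of MCOLN1 (1.88), and SLC36A1, a proton-coupled amino acid exporter (1.63). The adjusted p of these 7 genes lay between 0.025 and 0.0469 in limma. With no trend of the variance 0 of the 7 were called (adjusted p from 0.102 to 0.142), and 0 of all 8961 genes. MFSD1 and SLC38A9 were no longer called without replicate 2 of BOKU siCtrl (adjusted p = 0.0632 and 0.0546), nor was MFSD1 without replicate 1 of siIGF2R of either line (adjusted p = 0.0623 and 0.0504). MFSD1 also lost its call with no filter on signal, with quantile normalization and with the class medians subtracted (adjusted p = 0.0508, 0.0643 and 0.0532). With each gene's probe sets averaged, MCOLN3, SLC15A4, SLC38A9 and MFSD1 were no longer called (adjusted p from 0.0541 to 0.0628). MCOLN3 was at 325% of siCtrl in BOKU and 419% in SKG-I, and it reached 500 on siIGF2R arrays alone. TMEM192 was past 2-fold in both lines, with BOKU at 36.4% and SKG-I at 49.9% of siCtrl (adjusted p = 0.0633 in limma). It reached 500 on siCtrl arrays alone. It passed the adjusted threshold without replicate 1 of BOKU siCtrl (log2 change -1.27) or replicate 2 of BOKU siIGF2R (-1.21). More of all genes were called in these fits as well.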

How the data were processed

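For every probe set on an array, the authors deposited 1 intensity, a linear MAS5 signal with a lowest value of 1 and the same mean on every array (500.1 with 2% of values trimmed at each end). Background subtraction, summary over probes and scaling were done before deposition, and the table of 54675 probe sets is unfiltered. Gene names are those of the platform annotation.

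Analysis was of log2 signals, no constant added, as means of the 2 arrays that shared an RNA sample. The 62 control probe sets and those under 500 on all 8 arrays were left out, which left 16517. The methods name the same limit for arrays normalized to a higher mean than the deposited arrays have (752 to 840 untrimmed), so the filter here is stricter. The model in limma 3.58.1 (R 4.3.3) had the cell line and the siRNA as effects and let the variance follow the signal, and it was tested on simulated data first. The residual degrees of freedom were 1, with 4.82 added by limma, and Benjamini-Hochberg adjustment was over all probe sets kept. For the knockdown, p-values rest on how far its change differed between the 2 cell lines. For the line difference, they rest on how far it differed between siCtrl and siIGF2R. In both, limma also drew on the variance of the other probe sets. Duplicate arrays differed with an SD of 0.269 to 0.349 on the log2 scale, and the number of RNA samples limits the precision. Promoters were searched in Python 3.11.15.

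Values on all arrays are given for genes past 2-fold in a line, at an unadjusted p under 0.05, moving oppositely in the lines with arrays apart, or among the 3 largest called line differences each way. Of other genes, those called or past 2-fold in both lines are named. The probe sets of LAMP2 and the genes above siCtrl in both lines were added after their values were seen. The members and lists were chosen with earlier results of these data known. Alternatives covered the filter, normalization, a floor of 100, the signal classes, the variance trend, arrays as samples with and without a replicate block, the choice of probe set, the methods' t-test and leaving out each array. Protein sequences were not used here.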

Additional observations from a re-analysis of the deposited data

Results flagged for a closer look

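For 4 genes, by the probe set that stood for each, the siIGF2R arrays lay wholly below the siCtrl arrays in BOKU and wholly above them in SKG-I. The change in SKG-I minus the change in BOKU, on the log2 scale, was 0.81 for NPC1, 0.64 for CTNS, 0.53 for NPC2 and 0.42 for LAMP2. The difference between the lines was not tested, because each line gave 1 RNA sample per siRNA. The share of such genes was 13.8% of the 29, beside 5.57% of all genes measured.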

How the results depend on the processing

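The counts and medians rest on 1 RNA sample per line and siRNA, and few reached the adjusted threshold, so that the settings moved small counts. With no filter (30 genes, LAMP3 included), 3 genes were higher at an unadjusted p under 0.05, 1 was past 2-fold in BOKU, 2 in SKG-I and 1 in both lines, and 2 were called higher in SKG-I than in BOKU. Quantile normalization gave 1 gene higher at an unadjusted p under 0.05, 2 called higher in SKG-I and a median change of -0.12 in SKG-I, with log2 changes of 0.046 for LAMP2 and 0.023 for NPC2 over both lines. Median scaling put 1 gene past 2-fold in BOKU and gave NPC1 -0.0079. A floor of 100 gave 1 gene higher at an unadjusted p under 0.05. With the median of each signal class subtracted, 2 were, the median in SKG-I was -0.13, and LAMP2 was at 0.071. With no variance trend, 3 genes were lower and 1 was higher before adjustment, and 6 were called higher in BOKU, while 0 of all 8961 genes were called after siIGF2R. With each gene's probe sets averaged, 1 was higher at that p, 2 were past 2-fold in SKG-I, 2 were called higher in SKG-I, and LAMP2 was at 0.83. Over probe sets of 1 transcript these counts were 1, 0 and 2, the median in SKG-I was 0.023, LAMP2 was at 0.13 and ATP6V0E1 at 0.072. With the methods' t-test at an unadjusted p under 0.05, 1 gene was past 2-fold in SKG-I, and after Benjamini-Hochberg adjustment 0 were. The cause of these shifts was not tested.

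With the 8 arrays as samples, 15 genes were called lower and 3 higher with the replicate number as a block, as without it, 16 were lower and 3 higher before adjustment in both fits, and 2 were called higher in SKG-I with the block against 4 without it, where 17 were called higher in BOKU. Of all 8961 genes, 4534 were called without the block and 3763 with it, lower or higher. The replicate numbers did not pair the arrays (correlation of deviations between siRNAs 0.126 in BOKU and 0.0631 in SKG-I, 2 pairs each).

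Leaving out each array in turn gave 0 to 3 genes called lower (3 without replicate 1 of BOKU siCtrl, 1 without replicate 2 of BOKU siIGF2R) and 0 called higher. At an unadjusted p under 0.05 there were 7 to 10 lower and 0 to 2 higher genes. From 0 to 1 genes were past 2-fold in BOKU, 1 to 2 in SKG-I and 0 in both lines, 10 to 11 were called higher in BOKU and 1 in SKG-I. The median change ranged from -0.41 to -0.24 for BOKU. For SKG-I it ranged from -0.25 to -0.19. The sign turned for genes near 0, with ranges of -0.13 to 0.082 for CTNS, -0.13 to 0.062 for LAMP2 and -0.013 to 0.067 for NPC1. Calls over all genes rose most without replicate 1 of BOKU siCtrl and without replicate 2 of BOKU siIGF2R. The genes called lower in those fits are thus not a feature of this set alone.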

Other observations

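Of the 8 further V-ATPase genes measured, 4 were called higher in SKG-I over both siRNAs by limma (against 24.2% of all genes) and 0 were called higher in BOKU (against 22%). These were NCOA7, an interaction partner of the pump (log2 difference 2.35), and ATP6V0E2, a second form of subunit e (1.35). The others were DMXL2, a rabconnectin that takes part in pump assembly (1.28), and its paralog DMXL1 (0.76). All were named after their values were seen. ATP6V0E2 reached the signal required of a measured gene on the SKG-I siIGF2R arrays alone, so it was measured through the line where it was high. NCOA7 read 800 and 815 on the BOKU siCtrl arrays and 1920 and 1892 with siIGF2R, against 5772 and 6172 and then 6429 and 6893 in SKG-I, so that its arrays lay above siCtrl in both lines, at 236% of siCtrl in BOKU and 112% in SKG-I (log2 change over both lines 0.70, adjusted p = 0.186 in limma).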
